A study of Homo sapiens with 9 samples.

Results

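Untreated LX-2 cells were compared with LX-2 cells given transforming growth factor-β (TGF-β), using every gene of the deposited count table. The comparison was defined by the library labels and took 6 of the 9 RNA-seq libraries of the series, 3 untreated (control) and 3 treated with TGF-β (TGF-β). The 3 libraries that also received uridine were left out of the model. LX-2 is a human cell line labelled as hepatic stellate cells of wild-type genotype, and every library came from this 1 line, kept in medium with serum and antibiotics. The treated libraries carry the label TGF-β on day 1. In the methods of the study, plated cells received 25 ng/ml TGF-β for 12 hours before the medium was exchanged. The control libraries carry no treatment in their labels and were taken as untreated from their titles and from the design text of the series. Nothing in the labels says that libraries of a group came from separate cultures, so the p-values measure the spread between these libraries, which may be technical.

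TGF-β is a secreted cytokine that binds a pair of receptor serine/threonine kinases, which phosphorylate SMAD2 and SMAD3. These join SMAD4, move to the nucleus and act on target genes together with partner factors such as AP-1, and several of the targets feed back on the pathway. In the liver, TGF-β drives hepatic stellate cells to become myofibroblasts, which contract, lose their retinoid droplets and lay down collagen.

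Of 20777 genes listed, 12970 had enough reads to be tested. TGF-β raised 184 genes (1.42% of those tested) and lowered 45 (0.347%) at an adjusted p under 0.05 in edgeR's quasi-likelihood test, and 80.3% of the calls were increases. At an unadjusted p under 0.05, 743 genes were higher and 587 lower. The raised genes included the matrix adaptor TGFBI and the feedback inhibitor PMEPA1, collagens of types IV, V, VII and XV, fibronectin, the AP-1 subunit JUN and the cytokine IL11. The lowered genes included the transcription factor ATOH8, the tight junction scaffold TJP3, the perilipin PLIN4 and the interferon-stimulated genes OASL and IFITM1. The median absolute log2 fold change was 1.64 among raised genes, from 0.583 upwards, and 1.49 among lowered genes (0.603 to 3.10). Protein-coding genes made up 170 of the raised and 41 of the lowered genes, and 12 raised genes were long non-coding RNAs. In every called gene the 3 TGF-β libraries lay wholly above or wholly below the 3 control libraries. The same was seen in 9.78% of all tested genes upwards and 7.90% downwards. For a single gene, the exact two-sided permutation test of 3 against 3 libraries cannot give a p below 0.1.

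**Figure D1:**
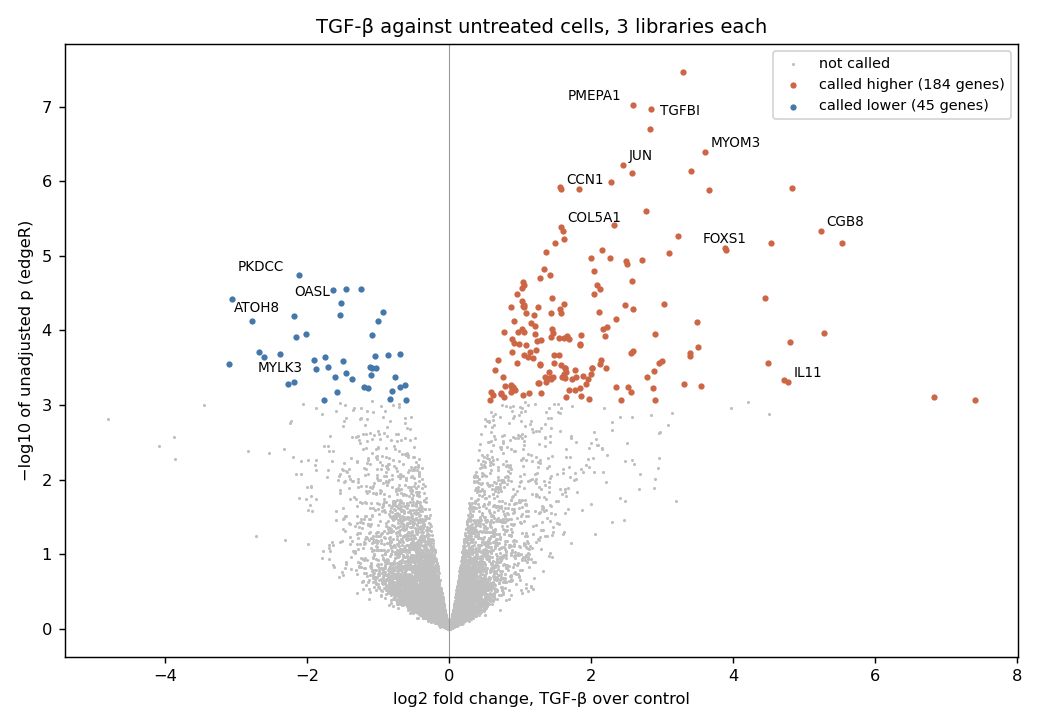
Each point is 1 of the 12970 tested genes, with the log2 fold change of TGF-β over control on the x axis and the −log10 of the unadjusted edgeR p on the y axis. Orange points are the 184 genes called higher and blue points the 45 called lower, and PMEPA1 and TGFBI stand near the top of the raised side.

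All 6 libraries were sequenced to a like depth, with 40539751 to 41467124 reads on genes. The control libraries differed more among themselves than the TGF-β libraries did: correlations of log2 counts scaled to library size (CPM, reads per 1e6 reads) were 0.929 to 0.983 between controls and 0.990 to 0.991 between treated libraries. Control replicate 1 stood apart. Its mitochondrial transcripts made up 16.5% of reads, against 11.1% and 13.6% in the other controls and 12.2% to 13.04% after TGF-β, and the slope of its log2 CPM on GC content was 13.8, against 3.96 and 7.33 in the other controls and 7.73 to 8.62 after TGF-β. The first principal component (56.4% of the variance) ran along the control libraries, and the second (26.6%) separated the groups. Without control replicate 1 the same test called 1094 genes higher and 1058 lower. Leaving out any 1 of the other libraries gave 23 to 144 higher and 0 to 46 lower calls. A set of 22 genes was called whichever library was left out, and all 22 were raised. Among them were CGB8, LOC105374715, FOXS1, KRT6A, CLDN14-AS1, MYOM3, KCNJ18, TGFBI, PMEPA1, JUN, CDKN2B, PLAU, SERPINE2 and CCN1, and also NKAIN4, KANK4, PTHLH, EPHB2 and NAV1, these last named after their values were seen. No called gene changed direction under any alternative. The part of the GC slope or of the mitochondrial share in the results was not tested, beyond the fits with the slope as a covariate given in the closing section.

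The labelled cell type was checked against its markers, with levels between genes compared as FPKM, which also divides by gene length. FPKM is not corrected for GC content. Of 20 markers of stellate cells or fibroblasts, 19 were listed, 9 reached 1 FPKM in every library and 10 stayed under 1 FPKM in every library. The markers present were those of a broad mesenchymal kind. VIM, an intermediate filament of mesenchymal cells, was at 438 to 852 FPKM, THY1 at 42.3 to 60.8, TIMP1 at 112 to 153, LOXL2 at 38.4 to 45.1, COL1A1 at 7.34 to 11.3, DES at 6.40 to 9.29 and PDGFRB at 1.91 to 5.21. Markers that define stellate cells or fibroblasts were at or near 0. COL1A2, the second chain of type I collagen, did not exceed 0.00476 FPKM in any library, HAND2 0.00868, RELN 0.00211 and GFAP 0.00366. COL3A1 lay between 0.0752 and 0.351 FPKM, and LRAT, the enzyme that makes retinyl esters, was not listed. Some simple keratins were abundant instead: KRT7 ranged from 594.8 to 1178 FPKM, and the group means of KRT8 were 2475 and 2546 FPKM. Another simple keratin, KRT19, lay between 0.629 and 1.15 FPKM. The epithelial markers EPCAM, CDH1, SOX9 and SPP1 did not exceed 0.0784, 0.182, 0.1995 and 0.234 FPKM. The data thus go against the labelled cell type in several defining markers, and the libraries are called LX-2 below as labelled. Hepatocyte and endothelial markers were all under 1 FPKM, at summed levels of 0.232 to 0.29 and 0.257 to 0.40 FPKM. Of the leukocyte markers, CD68 reached 16.8 to 22.7 FPKM and CSF1R 2.21 to 10.4, while PTPRC, the antigen of all leukocytes, was not listed.

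**Figure D2:**
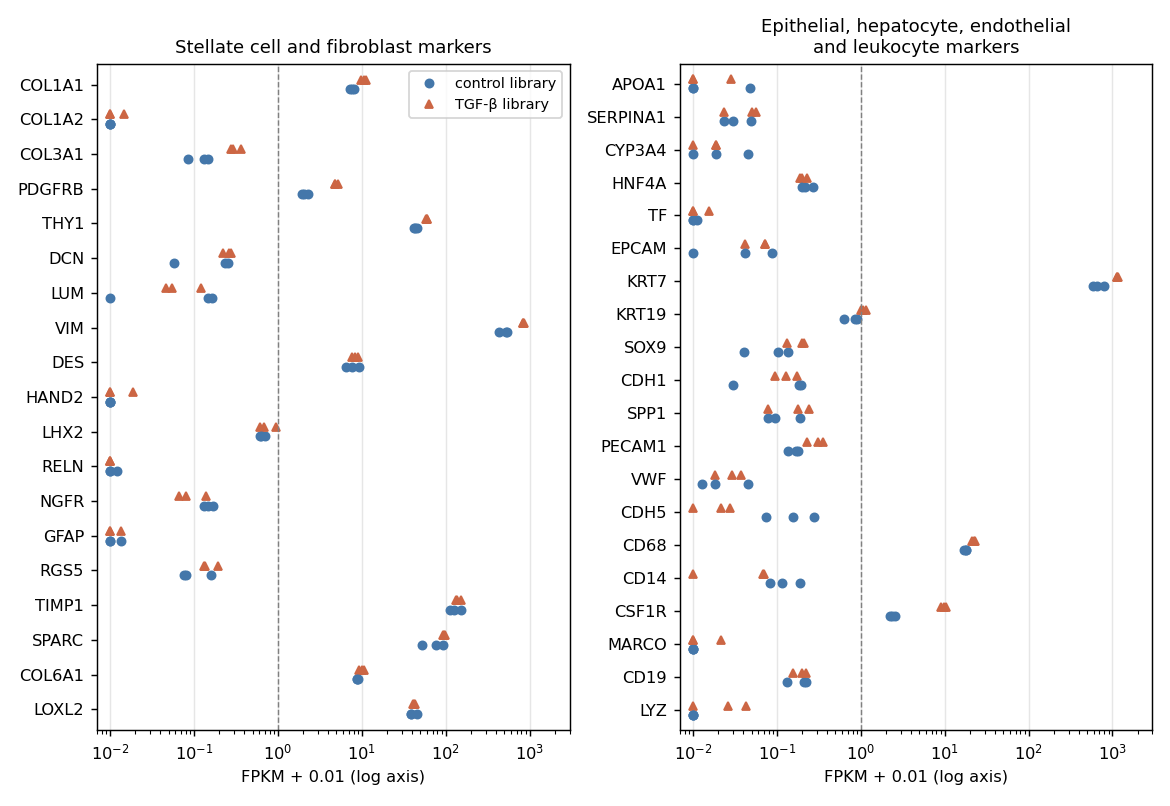
FPKM plus 0.01 of each listed marker on a log axis, with 1 circle per control library and 1 triangle per TGF-β library. The dashed line marks 1 FPKM, and 10 of the 19 listed stellate cell and fibroblast markers, COL1A2, HAND2 and RELN among them, lie below it in all 6 libraries.

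Some of these markers moved with the treatment. The summed level of the stellate cell and fibroblast markers was 755 to 859 FPKM in control and 1203 to 1221 FPKM after TGF-β, most of it VIM. That of the epithelial markers was 596 to 803 FPKM in control and 1131 to 1179 FPKM after TGF-β, nearly all KRT7, which itself was not called (log2 fold change 0.71, adjusted p = 0.324). Leukocyte markers summed to 19.8 to 20.8 FPKM in control and 30.8 to 32.9 FPKM after TGF-β. Of all these markers 3 passed the test: VIM, PDGFRB and CSF1R, the receptor of macrophage colony-stimulating factor, which is known from macrophages. CSF1R was at 12.8, 9.37 and 7.88 CPM in the controls and 44.6, 38.1 and 40.8 CPM after TGF-β, a 4.11-fold increase (log2 fold change 2.04 ± 0.21 SE, adjusted p = 0.00845). PDGFRB (chr5:150113837-150155872, minus strand) lies close upstream of the CSF1R promoter (chr5:150113367-150113425) on the same strand. Whether the rises of PDGFRB and CSF1R are separate was not tested. These are bulk libraries, in which a change in the number of cells of a kind and a change in RNA per cell cannot be told apart. The part of these marker levels in the results was not tested.

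The genes with the largest increases belonged to many functions. Called genes were ranked by fold change after those averaging under 1 on the log2 CPM scale were set aside, and the first 15 raised genes included CGB8, LOC105374715, IL11, FOXS1, KRT6A, MYO7B, CLDN14-AS1, MYOM3, GPR17, PDZK1, PPP2R3B, KCNJ18 and SLCO2A1. IL11, a cytokine of the IL6 family (chr19:55364389-55370463, minus strand), had 0, 0.307 and 0.312 CPM in the controls and 5.32, 6.39 and 6.24 CPM after TGF-β. It was thus nearly silent in control cells, with 0 reads in control replicate 1, and present in every treated library (log2 fold change 4.78 ± 0.77, adjusted p = 0.035). FOXS1, a forkhead transcription factor (chr20:31844301-31845619, minus strand), went from 0.147, 0.355 and 0.208 CPM to 5.35, 6.01 and 5.42 CPM, a 23.1-fold rise. MYOM3, a protein of the sarcomere M-band, rose 12.1-fold, from 1.32, 1.51 and 1.29 to 16.9, 17.4 and 15.9 CPM. Both groups were tight for MYOM3, and the lowest treated library was far above the highest control.

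CGB8, a gene for the beta subunit of chorionic gonadotropin (chr19:49047638-49049106, minus strand), had the largest fold change of the 15, at 0.382, 0.142 and 0.187 CPM in control and 9.67, 8.46 and 8.49 CPM after TGF-β. Its fold was 37.8 (log2 5.24 ± 0.40, adjusted p = 0.00317). Near-identical copies of CGB8 lie in the same cluster, so that the split of reads among them is uncertain. The same holds for KCNJ18, an inward rectifier potassium channel that shares most of its sequence with KCNJ12, which was also raised (log2 fold change 2.27), and in part for the type II keratin KRT6A (14.98-fold higher). CLDN14-AS1 is an antisense gene, and the strandedness of the libraries is not given in the sources used here, so its reads cannot be told from those of the gene it overlaps. PPP2R3B, a regulatory subunit of protein phosphatase 2A, spread widely in the treated libraries, at 2.099, 4.28 and 6.63 CPM against 0.441, 0.379 and 0.416 CPM in the controls. SLCO2A1, a prostaglandin transporter, GPR17, an orphan G protein-coupled receptor, PDZK1, a scaffold of membrane transporters, and MYO7B, a myosin of microvilli, rose 8.57-fold, 11.4-fold, 11.2-fold and 14.9-fold. MYO7B (chr2:127535802-127637729) and GPR17 (chr2:127645864-127652639) lie close together on the plus strand, and whether their rises are separate was not tested.

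Decreases were smaller. The 15 largest under the same rule were those of ATOH8, TJP3, MYLK3, PLIN4, WNT6, PKDCC, SECTM1, NTSR1, PPDPFL, DAGLA, C11orf86, ALPP, AATK, METTL7A and DAB2. ATOH8, a basic helix-loop-helix transcription factor (chr2:85751344-85788066, plus strand), had 4.68, 3.22 and 2.68 CPM in control and 0.575, 0.433 and 0.532 CPM after TGF-β. This was 6.83-fold lower (log2 fold change −2.77 ± 0.33, adjusted p = 0.0126). WNT6, a secreted Wnt ligand, was at 43.7, 25.2 and 24.2 CPM in control and 7.62, 6.15 and 7.16 CPM after TGF-β, and control replicate 1 was the highest library. PKDCC, a secreted tyrosine kinase with roles in skeletal growth, went from 26.4, 19.7 and 18.8 to 5.396, 4.78 and 4.88 CPM and was 4.302-fold lower (adjusted p = 0.00614). MYLK3, the cardiac myosin light chain kinase, was at 9.73, 20.03 and 20.9 CPM in control, with replicate 1 the lowest control, and at 2.798, 3.46 and 3.46 CPM after TGF-β. DAB2, a clathrin adaptor that also binds TGF-β receptors, fell from 44.3, 58.8 and 66.2 to 19.96, 19.9 and 18.4 CPM, and here control replicate 1 was the lowest control. ALPP, placental alkaline phosphatase, fell 3.11-fold from 169.8, 122 and 122 to 45.3, 41.05 and 46.5 CPM, and its close copy ALPI fell too (log2 fold change −1.24), so that reads may be split between the copies. DAGLA, the lipase that makes the endocannabinoid 2-arachidonoylglycerol, and NTSR1, a neurotensin receptor, were 3.34-fold and 3.75-fold lower. No lowered gene kept its call whichever library was left out: without control replicate 2, or without any 1 of the TGF-β libraries, edgeR called 0 genes lower, with 885 to 910 genes of either direction at an unadjusted p under 0.05.

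**Figure D3:**
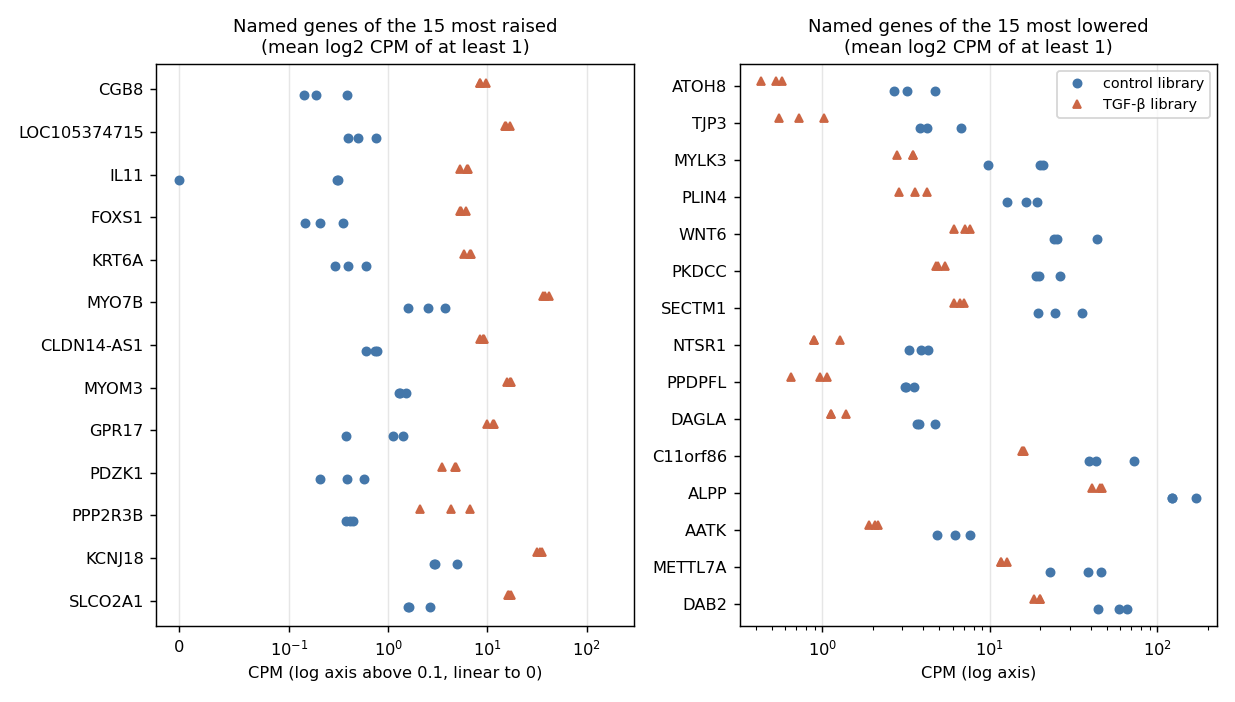
CPM of raised (left) and lowered (right) genes named from the 15 called genes of largest fold change in each direction that averaged at least 1 on the log2 CPM scale, with 1 circle per control library and 1 triangle per TGF-β library on log axes (the left axis is linear below 0.1). The 2 groups do not overlap for any gene shown, and IL11 has 0 reads in 1 control library.

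Direct targets of the SMADs and feedback genes of the pathway held some of the lowest p-values of all tested genes, PMEPA1 and TGFBI among them. Of 22 tested genes, 6 rose (27.3%, against 1.42% of all tested genes), none fell, and the median log2 fold change was 0.424 against −0.0519 over all tested genes. Members of this list and of those below were chosen with earlier results of these data known. Shares and medians set against all tested genes are therefore descriptions of the lists and not tests. TGFBI, a secreted matrix protein that binds integrins (chr5:136028895-136063818, plus strand), went from 329.9, 299.8 and 300.1 to 2290, 2235 and 2138 CPM. At 817 FPKM after TGF-β it was among the more abundant transcripts, 7.17-fold above the control level of 115 FPKM. PMEPA1, a membrane protein that withholds SMADs from the receptor (chr20:57648392-57711536, minus strand), went from 39.9, 35.8 and 40.8 to 229, 235 and 237 CPM, a 6.02-fold rise. CDKN2B, the cyclin-dependent kinase inhibitor p15, went from 9.79, 12.1 and 14.5 to 60.6, 59.9 and 60.97 CPM (4.99-fold, adjusted p = 0.00314). LTBP2, a latent TGF-β binding protein of microfibrils, and the transcriptional repressor BHLHE40 rose 3.59-fold and 1.95-fold. The count of raised targets was 4 without control replicate 2 or any 1 of the TGF-β libraries, 6 without control replicate 3 and 10, with 1 lowered, without control replicate 1.

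Other feedback genes missed the threshold. SMAD7, the inhibitory SMAD, was at 3.76, 5.01 and 4.85 CPM in control and 6.75, 8.22 and 8.08 CPM after TGF-β, without overlap, but its log2 fold change of 0.76 ± 0.21 gave an adjusted p of 0.208. SKIL and KLF10, both early targets, had log2 fold changes of 0.51 and 0.60 (adjusted p = 0.887 and 0.175), and the cell cycle inhibitor CDKN1A one of 0.75 (adjusted p = 0.213). The inhibitors of differentiation ID1, ID2 and ID3, targets of BMP signals, had log2 fold changes of −0.19, −0.34 and 0.34, and their groups overlapped. None of the 14 tested TGF-β ligands, receptors and signal transducers was called by edgeR or DESeq2, and 1 was below an unadjusted p of 0.05, SMAD3. SMAD3, the transducer itself, was at 30.2, 27.01 and 28.1 CPM in control and 18.9, 21.2 and 22.5 CPM after TGF-β (log2 fold change −0.44, adjusted p = 0.251). TGFB1, the ligand gene, overlapped between the groups, at 253, 157 and 126 and 254, 241 and 233 CPM. Without control replicate 1, 1 of the ligands, receptors and transducers was called higher and 3 lower.

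In the activin and BMP branch, 2 of 19 tested genes rose (10.5%, against 1.42% of all tested genes) and none fell. FSTL3, a secreted protein that binds and blocks activins, went from 146, 109.7 and 92.01 to 336, 311 and 307 CPM (2.75-fold, adjusted p = 0.0157). BMP6, a bone morphogenetic protein, rose 2.21-fold. NOG, an antagonist of BMPs, was low at 0.324, 0.379 and 0.333 and 0.999, 1.06 and 0.967 CPM and missed the threshold (adjusted p = 0.0598). No gene of this list was called without control replicate 2 or any 1 of the TGF-β libraries, 2 rose without control replicate 3, and 4 rose and 2 fell without control replicate 1.

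The median fold change of collagen chains lay above that of all tested genes. Of 19 tested chains, 5 rose (26.3%, against 1.42% of all tested genes) and none fell. Without overlap, 12 lay above the controls (63.2%, against 9.78%) and 2 below (10.5%, against 7.90%), and the median log2 fold change was 0.685, against −0.0519 over all tested genes. COL5A1, a chain of the fibrillar type V collagen (chr9:134641774-134844843, plus strand), was at 239.9, 270.1 and 289 CPM in control and 802, 798 and 795 CPM after TGF-β. The treated libraries were almost equal, and the fold change of 2.997 had an adjusted p of 0.00314. The chains of the basement membrane collagen IV rose together: COL4A1 went from 12.7, 19.3 and 24.9 to 54.9, 62.4 and 54.1 CPM and COL4A2 from 60.02, 68.6 and 81.4 to 172, 166 and 164 CPM. COL7A1, which forms anchoring fibrils, rose 1.88-fold, and COL15A1, a collagen of basement membrane zones, 4.62-fold from a low level of 0.0836 to 0.378 FPKM. The other tested type IV chains had log2 fold changes of −1.02 for COL4A3, −0.34 for COL4A5 and −0.54 for COL4A6, and none was called. COL1A1, the first chain of type I collagen, was at 52.8, 43.5 and 41.1 CPM in control and 65.2, 57.6 and 66.1 CPM after TGF-β. These groups did not overlap, and the log2 fold change was 0.46 ± 0.14 with an adjusted p of 0.241. COL3A1 was at 0.5, 0.733 and 0.582 and 1.599, 1.92 and 1.43 CPM, a 2.71-fold difference that missed the threshold (adjusted p = 0.0823) at a level of 0.2997 FPKM. The number of chains called depended on the libraries: it was 0 without control replicate 2, 4 without control replicate 3, 1 without any 1 of the TGF-β libraries, and 10 higher and 3 lower without control replicate 1.

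Enzymes that fold, process and crosslink collagen rose in 2 of 17 tested genes (11.8%, against 1.42%), with a list median of 0.116. LOX, lysyl oxidase, which starts the crosslinking of collagen and elastin, went from 5.56, 6.62 and 8.24 to 27.9, 27.9 and 28.4 CPM. It rose 4.12-fold with nearly equal treated libraries (adjusted p = 0.00568). P4HA3, a prolyl 4-hydroxylase subunit, rose 5.36-fold at a low level (0.294, 0.331 and 0.146 and 1.37, 1.01 and 1.74 CPM). P4HA2, the related subunit of higher level, went from 8.69 to 14.8 FPKM and missed the threshold (adjusted p = 0.108). The list held 4 raised genes without control replicate 1, 1 without control replicate 3 and none without any 1 of the other libraries.

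Of 32 tested matrix glycoproteins and proteoglycans, 4 rose (12.5%, against 1.42% of all tested genes) and none fell. FN1, fibronectin (chr2:215360440-215436172, minus strand), was at 51.4, 74.3 and 75.8 CPM in control and 187, 207 and 202 CPM after TGF-β, a 2.96-fold rise (adjusted p = 0.0102). The laminin chains LAMA3 and LAMB3 had log2 fold changes of 0.78 and 0.44 and were not called. THBS1, thrombospondin-1, which can activate latent TGF-β, went from 6.24, 12.4 and 14.3 to 39.05, 42.4 and 47.2 CPM, with control replicate 1 the lowest. MFAP4, a microfibril-associated protein, rose 4.01-fold. TNC, tenascin-C, had a log2 fold change of 1.43 and an adjusted p of 0.106, and POSTN, periostin, was not listed. The count was 1 without control replicate 2 or TGF-β replicate 1 or 2, 2 without TGF-β replicate 3, 4 without control replicate 3, and 14 higher and 4 lower without control replicate 1.

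Of 27 tested matrix proteases and inhibitors, 4 rose (14.8%, against 1.42% of all tested genes) and none fell. PLAU, urokinase, went from 6.65, 6.67 and 7.34 to 34.6, 33.03 and 33.03 CPM (4.87-fold, adjusted p = 0.00121). Its inhibitor SERPINE2, protease nexin-1, rose 3.04-fold, and both calls were kept whichever library was left out. The urokinase receptor PLAUR and the tissue activator PLAT had log2 fold changes of 0.80 and 0.86 and just missed the threshold (adjusted p = 0.0537 and 0.0553). MMP2, a gelatinase, was at 53, 61.6 and 66.5 CPM in control and 157, 153 and 149 CPM after TGF-β. ADAM19, a membrane-bound metalloprotease, rose 6.59-fold, from 2.79, 3.88 and 4.7 to 22.3, 25.4 and 27.5 CPM. The inhibitors TIMP1, TIMP2 and TIMP3 had log2 fold changes of 0.08, 0.36 and 0.29, none called. Leaving out control replicate 1 gave 11 raised and 2 lowered genes, control replicate 3 gave 4 raised, TGF-β replicate 1 gave 3, and control replicate 2 or TGF-β replicate 2 or 3 gave 2.

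**Figure D4:**
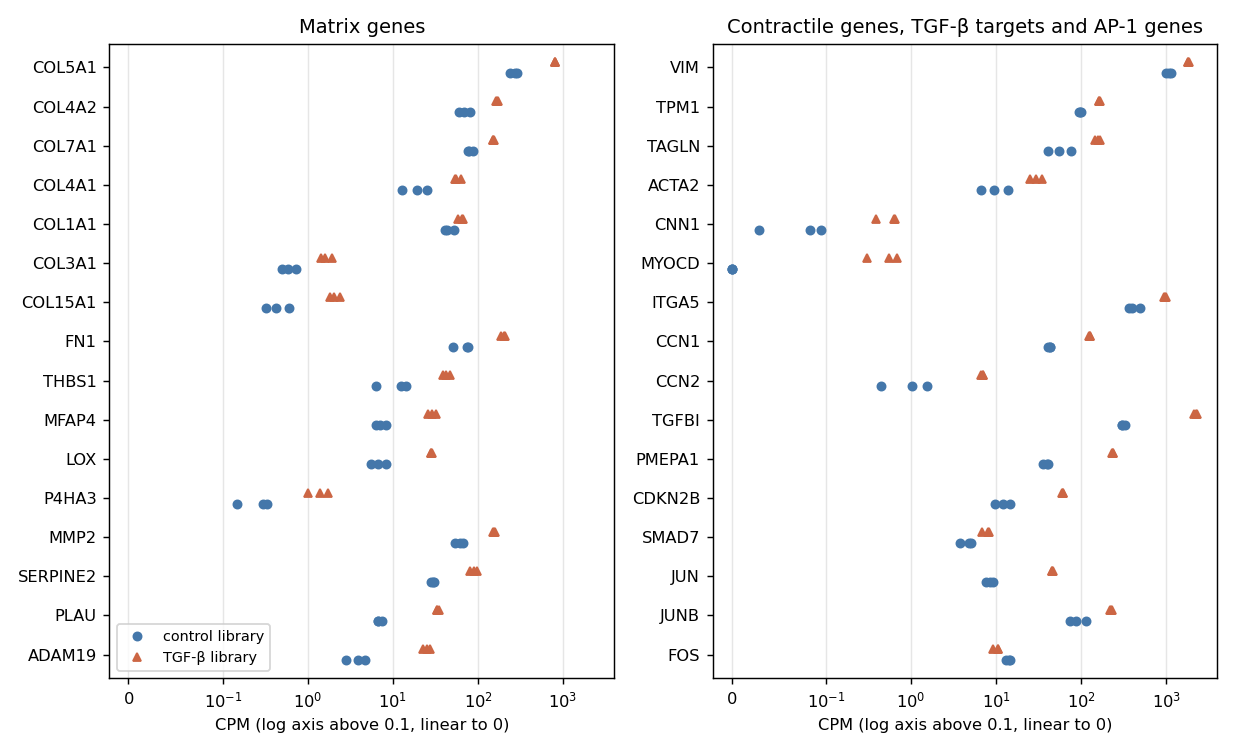
CPM of matrix genes (left) and of contractile genes, TGF-β targets and AP-1 genes (right), with 1 circle per control library and 1 triangle per TGF-β library, on an axis that is logarithmic above 0.1 and linear below. ACTA2, COL1A1, COL3A1 and SMAD7 were not called although their groups do not overlap, FOS lies lower after TGF-β and was not called either, and MYOCD has 0 reads in all 3 control libraries.

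The median fold change of contractile and cytoskeletal genes also lay above that of all tested genes, though most members were not called. Of 28 tested, 5 rose (17.9%, against 1.42%), none fell, and 18 lay above the controls without overlap (64.3%, against 9.78% of all tested genes), with a median log2 fold change of 0.475, which stays 0.475 with MYOCD at its lower bound. TAGLN, an actin-binding protein of smooth muscle, went from 75.5, 54.7 and 40.4 to 165, 158 and 146 CPM (2.75-fold, adjusted p = 0.0318). TPM1, tropomyosin 1, went from 93.4, 98.5 and 96.3 to 162, 166 and 163 CPM, and VIM from 1144, 1086 and 998 to 1850, 1794 and 1814 CPM, with tight groups and folds of 1.71 and 1.69. CNN1, calponin of differentiated smooth muscle, rose at a very low level (0.0294, 0.0946 and 0.0832 and 0.625, 0.649 and 0.387 CPM). MYOCD, the coactivator of SRF that drives smooth muscle genes, had 0 reads in every control library and 12, 23 and 28 reads after TGF-β, at least 5.78-fold higher when set against 3 reads in the control library where these weigh most. ACTA2, which encodes α-smooth muscle actin, the usual marker of activated stellate cells (chr10:88935074-88991339, minus strand), was at 13.7, 9.39 and 6.63 CPM in control and 34.9, 29.2 and 24.8 CPM after TGF-β. The groups did not overlap and the fold was 2.997 (log2 1.58 ± 0.29), but the adjusted p of 0.0553 just missed the threshold. The myosin light chain kinase gene MYLK3, called lower and described above, was not a member of this list. In the fit of all 9 libraries and in DESeq2 the list held 9 and 8 raised genes. None of the 28 was called without control replicate 2 or without any 1 of the TGF-β libraries, 2 were without control replicate 3, and 20 rose and 2 fell without control replicate 1.

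Among 12 tested integrin chains, 1 rose (8.33%, against 1.42% of all tested genes). ITGA5, the fibronectin receptor chain, went from 492, 399 and 363 to 994, 960.1 and 946 CPM, a 2.31-fold rise (adjusted p = 0.0141). At 223 FPKM it was above its partner ITGB1 (4.49 FPKM), which overlapped between groups and varied widely in control (4.71, 20.1 and 38.1 CPM). FPKM takes no account of GC content, on which log2 CPM had a positive slope in every library (3.96 to 13.8). The part of GC content in this difference between genes was not tested. ITGB3 had a log2 fold change of 2.23 at about 1 CPM or less, not called (adjusted p = 0.139). ITGA5 kept its call without control replicate 1 or 3 and lost it without any 1 of the other libraries, and 3 chains rose without control replicate 1.

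Of 16 tested targets of YAP/TEAD and SRF, 2 rose (12.5%, against 1.42%). CCN1 and CCN2 are matricellular proteins that bind integrins, and CCN2 is also known as connective tissue growth factor. CCN1 went from 40.7, 42.4 and 42.4 to 122, 125 and 127 CPM, and CCN2 from 0.441, 1.02 and 1.52 to 7.02, 7.02 and 6.72 CPM, at 2.98-fold and 6.89-fold. CCN1 kept its call whichever library was left out, whereas CCN2 kept it without control replicate 1 or 3 and lost it in the other 4 cases. EDN1, endothelin 1, had a log2 fold change of 1.35 (adjusted p = 0.115). Without control replicate 1, 5 of these targets rose and 2 fell.

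JUN and JUNB were raised among the AP-1 and immediate early genes. Of 22 tested, 4 rose (18.2%, against 1.42% of all tested genes), none fell, and the list median was 0.0662. JUN, a subunit of the AP-1 dimer (chr1:58780788-58784327, minus strand), went from 9.06, 8.49 and 7.57 to 47.2, 45.2 and 45.1 CPM, a 5.47-fold rise (log2 2.45 ± 0.14, adjusted p = 0.00121). JUNB, a related subunit, went from 112, 86.2 and 74.2 to 230.3, 223 and 219.6 CPM, 2.47-fold. The stress gene IER3 and the pluripotency factor KLF4 rose 2.34-fold and 1.82-fold. FOS, the partner of JUN, was at 14.4, 14.03 and 13.1 CPM in control and 9.14, 10.6 and 10.4 CPM after TGF-β, lower without overlap but not called (log2 fold change −0.46, adjusted p = 0.322). The other FOS-family genes FOSL1, FOSL2 and FOSB had log2 fold changes of 0.09, 0.13 and 0.43, and JUND one of 0.04. CREB1 and PRKACA, a transcription factor and the kinase subunit that phosphorylates it in the cAMP pathway, had log2 fold changes of −0.03 and −0.13, with overlapping groups. The list held 1 raised gene without control replicate 2 or any 1 of the TGF-β libraries, 4 without control replicate 3, and 5 raised and 2 lowered without control replicate 1.

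The promoters of the raised genes were searched for the AP-1 site, since JUN and JUNB were among them. RefSeq windows from 250 bases before to 50 bases after the gene start (GRCh38.p14) were found by symbol for 135 of the 184 raised and 32 of the 45 lowered genes. The letters TGAGTCA, on either strand (TGACTCA when read on the other), stood in 14 of the 135 raised windows (10.4%), in 0 of the 32 lowered windows, in 3.33% of 10358 windows of tested genes and in 4.92% of all 27305 windows. The cAMP response element TGACGTCA stood in 3 of the raised windows (2.22%, against 3.30% of tested genes), the TEAD site CATTCCA in 2 (1.48%, against 2.34%), the palindrome GTCTAGAC bound by SMADs in 0 (against 0.135%) and the GC-rich palindrome GGCGCC in 34 (25.2%, against 30.8%). All motifs were searched on both strands, and none of these letter strings contains another. A match is a description of letters in the window and says nothing of binding. ITGA5, a raised gene described above, holds the AP-1 letters from 6 bases before the start and is not shown. Stretches around the site are shown for IL11, CLDN4 and CSF1R, other raised genes described in the text that hold these letters, and for FN1, which holds the cAMP response element. They lie at chr19:55370527-55370585 on the minus strand for IL11, chr7:73830809-73830867 on the plus strand for CLDN4, chr5:150113367-150113425 on the minus strand for CSF1R and chr2:215436218-215436277 on the minus strand for FN1, upstream of the gene start. Capitals mark the site, which begins 96, 161, 34 and 183 bases before the start.
IL11: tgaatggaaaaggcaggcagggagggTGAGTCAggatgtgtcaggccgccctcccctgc
CLDN4: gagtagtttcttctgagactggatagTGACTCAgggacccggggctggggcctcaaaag
CSF1R: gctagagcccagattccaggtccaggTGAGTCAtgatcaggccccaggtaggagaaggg
FN1: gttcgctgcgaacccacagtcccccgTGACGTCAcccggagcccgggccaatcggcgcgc

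Growth factors and their receptors rose in 4 of 21 tested genes (19.0%, against 1.42% of all tested genes) and fell in none. PDGFB, a ligand of the platelet-derived growth factor family, went from 3.56, 2.44 and 2.52 to 8.82, 8.46 and 8.22 CPM, and PDGFRB, its receptor, from 13.2, 12.4 and 9.94 to 27.8, 27.1 and 29.5 CPM. Ligand and receptor thus rose in the same libraries, 2.999-fold and 2.37-fold. The insulin-like growth factor binding proteins IGFBP3 and IGFBP7 rose 3.61-fold and 2.04-fold. None of the growth factor genes was called without control replicate 2 or any 1 of the TGF-β libraries, 3 rose without control replicate 3, and 8 rose and 1 fell without control replicate 1. JAG1, a Notch ligand, was the 1 raised gene of 28 tested Notch and Wnt genes (3.57%, against 1.42% of all tested genes). It was at 2.03, 4.16 and 4.08 CPM in control and 13.1, 13.1 and 15.1 CPM after TGF-β. The Wnt ligand WNT6, called lower and described above, was not a member of this list. The Notch target HES1 was low, at 0.5, 0.402 and 0.562 and 0.175, 0.3605 and 0.2902 CPM, and lay lower without being called (adjusted p = 0.632). Beside FOXS1, the lineage factors FOXC2, RUNX1 and ETS2 rose 2.698-fold, 1.67-fold and 1.61-fold, 4 of 24 tested (16.7%, against 1.42%). Of the lineage factors, 1 rose without control replicate 2 or any 1 of the TGF-β libraries, 2 without control replicate 3, and 8 rose and 2 fell without control replicate 1. For the list of Notch and Wnt genes these counts were 0, 2, and 7 raised with 2 lowered.

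Junction genes and factors of the epithelial-to-mesenchymal transition gave 1 raised and 1 lowered gene of 23 (4.35% each way, against 1.42% and 0.347%). CLDN4, a tight junction claudin, went from 17.4, 11.6 and 11.3 to 41.02, 35.5 and 36.2 CPM, whereas TJP3, the scaffold ZO-3 of tight junctions, went from 6.76, 4.21 and 3.83 to 1.02, 0.553 and 0.726 CPM and was 6.403-fold lower (adjusted p = 0.022). SNAI2, a repressor of epithelial genes, had a log2 fold change of 1.08 and ZEB2 one of −0.73, neither called, and ZEB1 had too few reads to be tested. Neither call was kept without control replicate 2 or any 1 of the TGF-β libraries, and 8 genes rose and 1 fell without control replicate 1.

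The median fold change of interferon-stimulated genes lay below that of all tested genes, though most members were not called. Of 26 tested, none rose and 2 fell (7.69%, against 0.347% of all tested genes), 11 lay below the controls without overlap (42.3%, against 7.90%), and the median log2 fold change was −0.669, against −0.0519. OASL, an interferon-induced antiviral protein, went from 68.3, 54.2 and 48.3 to 18.7, 19.8 and 20.9 CPM, 2.87-fold lower (adjusted p = 0.01). IFITM1, which hinders the entry of viruses, went from 143, 109 and 84.2 to 50.04, 48.2 and 48.1 CPM, 2.298-fold lower. Control replicate 1 was the highest control for both genes. OAS3, MX1 and IFIT3, also antiviral, had log2 fold changes of −1.21, −1.19 and −1.95 without overlap and were not called (adjusted p = 0.122, 0.38 and 0.228). The transducer IRF9 had a log2 fold change of −0.01, with overlapping groups. The number called lower was 14 without control replicate 1, 2 without control replicate 3 and 0 without control replicate 2 or any 1 of the TGF-β libraries.

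IL11, raised, was the 1 called gene of 18 tested cytokine and inflammatory genes (5.56%, against 1.42% of all tested genes raised). IL6 and LIF, of the same cytokine family, were at log2 fold changes of 0.86 and 0.63 (adjusted p = 0.166 and 0.524). The chemokine CCL5 and the macrophage factor CSF1 lay lower without overlap, at −1.35 and −0.99 (adjusted p = 0.0583 and 0.0939), and CXCL8 and CXCL1 had too few reads to be tested. None of these genes was called without control replicate 2 or any 1 of the TGF-β libraries, and 3 rose and 4 fell without control replicate 1.

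The lists of lipid genes gave 1 call. The lipase gene DAGLA, called lower and described above, was in neither list. Of 19 tested genes of lipid droplets, lipolysis and fatty acid handling, 1 fell (5.26%, against 0.347% of all tested genes). It was PLIN4, a perilipin that coats lipid droplets (chr19:4502180-4518465, minus strand). PLIN4 was at 19.2, 16.4 and 12.7 CPM in control and 4.22, 3.56 and 2.85 CPM after TGF-β, 4.54-fold lower (adjusted p = 0.0113). PLIN2 and PLIN3, the perilipins of most cells, had log2 fold changes of −0.01 and 0.04. None of 28 genes of cholesterol and fatty acid synthesis was called by edgeR or DESeq2, and 1 was under an unadjusted p of 0.05. This was SREBF1, the gene of the lipogenic factor SREBP-1, at 458, 342 and 316 CPM in control and 271, 250.2 and 254 CPM after TGF-β (log2 fold change −0.53 ± 0.16, adjusted p = 0.249), without overlap. FASN, fatty acid synthase, overlapped (log2 fold change −0.20). CD36 and PLIN1 had too few reads to be tested, and LPL was not listed. Without control replicate 1, 2 of the lipid handling genes rose and 4 fell, and 3 of the synthesis genes fell. PLIN4 was not called without control replicate 2 or any 1 of the TGF-β libraries.

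No gene of stellate cell quiescence and retinoid handling was called by edgeR among 21 tested, with 3 higher and 3 lower at an unadjusted p under 0.05, and DESeq2 called 1 higher and 2 lower. CEBPA, an adipogenic factor, was at 13.6, 8.37 and 8.26 CPM in control and 3.997, 3.101 and 3.39 CPM after TGF-β, 2.88-fold lower without overlap, and just missed the threshold (adjusted p = 0.0521). PPARG, the other main adipogenic factor, had a log2 fold change of −0.28 with overlapping groups, and CYP26B1, which degrades retinoic acid, one of 1.08 (adjusted p = 0.0595). Leaving out control replicate 1 gave 3 raised and 3 lowered genes of this list.

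Of 20 tested genes of uridine, purine and adenosine handling, 1 rose (5.0%, against 1.42% of all tested genes). P2RY2, a receptor for extracellular UTP and ATP, went from 6.97, 4.16 and 4.39 to 16.4, 15.7 and 16.2 CPM, 3.11-fold. NT5E, the ecto-enzyme that makes adenosine from AMP, had a log2 fold change of 1.43 (adjusted p = 0.0676). ADORA1, the adenosine A1 receptor, and UPP1, uridine phosphorylase, overlapped between the groups, with log2 fold changes of 0.27 and −0.22. P2RY2 lost its call without any 1 library other than control replicate 1, and without that library 6 genes of the list rose.

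Proliferation, stress and metabolic genes gave few calls. Of 16 tested cell cycle inhibitors, 1 rose (6.25%, against 1.42% of all tested genes). This was TP53I3, an oxidoreductase induced by p53, at 3.102-fold. CDKN2B, described above, was counted with the SMAD targets. Among 32 replication and mitosis genes, 30 ER stress genes, 28 hypoxia and glycolysis genes and 23 redox genes, edgeR called none. At an unadjusted p under 0.05 these lists held 1, 1, 5 and 5 genes, and DESeq2 called 1 gene in all, in the hypoxia list. Without control replicate 1 they held 0, 4, 8 and 3 raised and 4, 2, 1 and 6 lowered genes, and the cell cycle inhibitors 5 raised and 4 lowered. MKI67, the proliferation marker, was at 65.02, 117 and 168 CPM in control and 135, 139 and 128 CPM after TGF-β, and all treated libraries lay within the range of the controls.

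**Figure D5:**
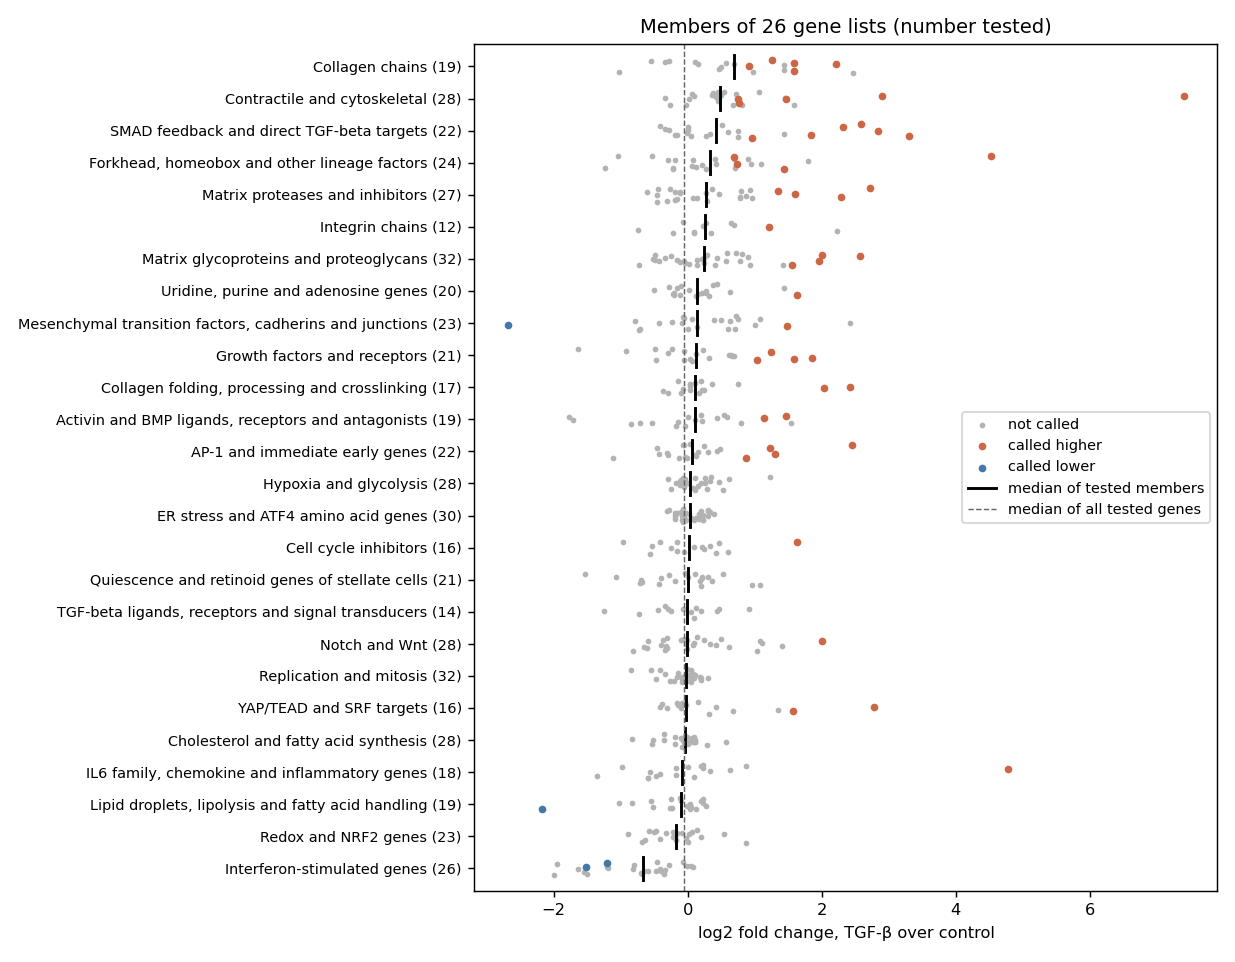
Log2 fold change of TGF-β over control for each tested member of 26 gene lists, with the number tested in parentheses, orange for genes called higher, blue for called lower and grey for the rest. Black bars are list medians and the dashed line is the median of all tested genes (−0.0519): collagens and contractile genes lie to the right of it (0.685 and 0.475) and interferon-stimulated genes to the left (−0.669).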

How the data were processed

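RNA-seq of 6 libraries was used, 3 labelled control and 3 labelled TGF-β. The authors deposited raw read counts per gene symbol, not normalized, and FPKM values of the same genes. The submitters' processing notes name fastp, HISAT2, HTSeq, R 3.2.0 and the build GRCh38.p13, with no role or order. Strandedness is not given in the sources used here. Depth was 40539751 to 41467124 counts per library, and libraries of a group differed by 4.29 to 318 times the sampling noise (chi-square per degree of freedom), so no pair was counted as 1 library. This does not show that they came from separate cultures. A count of 0 was read as up to 3 counts.

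Counts were tested by edgeR 4.0.16 under R 4.3.3, with low genes removed by filterByExpr, TMM scaling, the two-sided quasi-likelihood test (glmQLFTest), group as the 1 term and Benjamini-Hochberg adjustment over all 12970 tested genes. CPM are TMM-normalized. Genes were called at an adjusted p under 0.05. Alternatives were DESeq2 1.42.0, limma 3.58.1 on log2(FPKM + 1) or log2(FPKM + 0.1), other scalings and filters, a replicate block, a GC slope covariate and leaving out each library. Named genes are the 15 called genes of largest fold change in each direction that averaged at least 1 on the log2 CPM scale, members of 26 lists (704 genes, 584 tested), the genes the study measured in LX-2 cells, and genes noted as chosen after their values were seen, with KCNJ12 and ALPI likewise. Some genes that this rule selects are not reported here, though counts include them. Members and lists were chosen with earlier results of these data known. Gene positions are from GENCODE v29 (GRCh38), and promoters from RefSeq (GRCh38.p14).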

Additional observations from a re-analysis of the deposited data

How the results depend on the processing

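The count of raised and lowered genes depended on the model more than the direction of any called gene did. Against 184 higher and 45 lower, all 9 libraries in the model gave 324 and 129, DESeq2 344 and 168, limma on log2(FPKM + 1) 282 and 153 where genes averaged 0.5 FPKM or more, on log2(FPKM + 0.1) 273 and 152, and on log2(FPKM + 1) without that filter 258 and 112. Adding the GC slope of each library as a covariate gave 2122 and 1603 (57.0% higher, against 80.3%), and the slope with the replicate block 2086 and 1604. Leaving out each library gave 23 to 1094 higher and 0 to 1058 lower. The most came without control replicate 1 (50.8% higher), and 23 to 29 higher and 0 lower came without control replicate 2 or any 1 TGF-β library. RLE scaling, upper-quartile scaling, no filter and a minimum of 10 counts gave 168 to 207 higher and 44 to 61 lower. All 229 calls were shared by the fits of 9 libraries, DESeq2, both GC slope fits and the fit without control replicate 1, and none reversed under any alternative. Same-numbered libraries deviated together with correlations of 0.245, 0.11 and 0.0941, against −0.218 to 0.136 between libraries of different number. With 3 libraries per group these values cannot decide whether libraries were paired by number, and the labels state no pairing. The main fit took the libraries as unpaired. The replicate block gave 66 higher and 11 lower, 76 of them among the 229 and none a growth factor gene, and control replicate 3 correlated best with TGF-β replicate 2 (0.136).

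Among named genes not called, PRKACA turned to 0.0193 (log2) without control replicate 1 (lowest −0.218 without control replicate 3) and UPP1 to 0.137 (lowest −0.431 likewise). CREB1 turned to 0.0258 with the replicate block, 0.0191 with the GC slope and 0.0116 with both, and leaving out each library gave −0.304 to 0.225, above 0 without control replicate 2 or 3 or TGF-β replicate 3. None of these was called, and the cause was not tested. Depth was alike in all libraries and limits mainly genes of a few reads, such as MYOCD and CNN1.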

Other observations

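Keratins were chosen for a description after their values were seen. Of 17 tested keratin genes, 5 rose and 1 fell (over all tested genes 1.42% rose and 0.347% fell), and 7 lay above and 1 below the controls without overlap (over all tested genes 9.78% and 7.90%). The called genes beside KRT6A were KRT14, KRT16, KRT17 and KRT9, all higher, and KRT10, lower. KRT17, a keratin of basal and wounded epithelia, was at 1424, 791 and 642 CPM in control and 3633, 3331 and 3268 CPM after TGF-β (3.58-fold, adjusted p = 0.0381), and KRT14, of basal epithelia, at 7.65, 3.997 and 3.37 and 42.7, 40.4 and 39.3 CPM (8.18-fold). The group means of KRT17 were 604 and 2242 FPKM. KRT10, of differentiated squamous epithelia, went from 127, 139.9 and 136 to 73.2, 72.4 and 67.4 CPM. The simple keratins KRT8 and KRT18 had log2 fold changes of 0.00 and −0.23, with overlapping groups. KRT6A, KRT14, KRT16 and KRT17 have close copies, and the split of reads among copies is uncertain.

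A few called genes with known roles in muscle were likewise picked after their values were seen, and no list of such genes was counted. ACTC1, cardiac α-actin, was at 8.97, 5.68 and 6.16 CPM in control and 32.3, 29.1 and 29.8 CPM after TGF-β (4.39-fold, adjusted p = 0.00768). FHOD3, a formin of cardiac sarcomeres, CRYAB, a chaperone of muscle and lens, and MYLK2, the skeletal myosin light chain kinase, rose 3.62-fold, 4.51-fold and 5.75-fold, whereas MYLK3, given above, fell. PTHLH, parathyroid hormone-related protein, went from 1.71, 1.703 and 1.87 to 11.2, 12.3 and 12.8 CPM and kept its call whichever library was left out. The complement genes C3 and CFB moved in opposite directions, at −0.76 and 0.93 on the log2 scale (adjusted p = 0.0318 and 0.0395).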
